A study of Mus musculus with 2 samples.

Results

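Schwann cells are the glia of peripheral nerves, and 8 genes commonly used to recognise them were followed here on the arrays of tooth and skin. They are Sox10, Mbp, Pmp22, Prx, Egr2, S100b, Ngfr and Erbb3. The genes were taken by the gene name that the array gives to its non-control probes, and every probe was kept. The 8 genes had 11 probes among 55681 non-control probes, and they were 8 of 24323 named genes. Wild-type mice (C57BL/6J in the study's methods) provided total RNA from the tooth in one group and from the skin in the other. The age was P0, the day of birth, per the labels, whereas the study's methods give a stage 1 day later. No agent or mutant allele was part of either group. Each tissue had 1 array on a common slide, labelled with a single cyanine dye, and the number of mice behind an array is not given in the sources used here. With 1 array per tissue no difference could be tested, so no p-value is given and no difference has a replicate check.

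Schwann cells arise from the neural crest, the embryonic population that also gives rise to melanocytes. Their precursors need neuregulin from the axon to survive. Sox10 keeps the lineage in place and, together with Egr2, turns on the myelin genes in those cells that wrap an axon. Nerves reach the tooth from the jaw and, in skin, run through the dermis to hair follicles. Both tissues were taken whole, so a lower signal from fewer cells of a type and from less RNA per cell cannot be told apart.

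The part of each transcript that a probe reads sets what its signal can stand for, so the probes are shown first. Each probe had 60 bases. Positions are in mm9, per the file headers, and sequences are in the transcript's direction, as the files give them. The probe of Erbb3 (chr10:128006424-128006483, minus strand) and one of the probes of Pmp22 (chr11:62971862-62971921, plus strand) each held an open frame that closed with TGA, and these are the last codons of the coding sequence. The capitals mark the stop codon, which followed 19 codons in Erbb3 and 17 codons in Pmp22. At least 17 codons before a stop, with no AATAAA in the probe, were found in 14.1% of all named probes.

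Erbb3: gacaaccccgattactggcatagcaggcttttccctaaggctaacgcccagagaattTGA
Pmp22, probe at the stop codon: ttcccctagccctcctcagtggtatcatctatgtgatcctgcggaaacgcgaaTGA

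Of 6 further probes only the last 30 bases are given. The probes of Mbp are described with its values. The capitals mark AATAAA, the usual signal for polyadenylation, searched on the transcript's strand only. It stood in the probes of Sox10 (chr15:78985518-78985577, minus strand), Prx (chr7:28304999-28305058, plus strand) and the other probe of Pmp22 (chr11:62972989-62973048, plus strand). Of all named probes, 13.4% held it. The probes of Egr2 (chr10:67004798-67004857, plus strand), S100b (chr10:75723783-75723842, plus strand) and Ngfr (chr11:95430211-95430270, minus strand) did not contain these letters.

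Sox10: tccagcgataccttAATAAAgtacgtagct
Egr2: tagttgtggagagagaaacaatctattcta
Ngfr: ttcatgttccctgacacttcccctttgcat
S100b: tattcaaatagcgacgttttaaataatcca
Pmp22, other probe: gatgcatcaaAATAAAcatcagagtaactc
Prx: tcaaactatgggAATAAAataattcaaaag

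RefSeq lists Sox21, the gene that the study is about, among the former names of Sox10. The probe used here carries the accession of Sox10 and not that of present-day Sox21.

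The 8 genes did not move as a group. Sox10, Egr2 and Erbb3 were higher in skin, S100b and Ngfr were higher in tooth, and the myelin genes Pmp22, Prx and Mbp were equal or higher in tooth by about 2-fold or less. A gene was counted as detected where most spots of its brightest probe were called well above background. In tooth 7 of the 8 genes were detected (68.5% of all named genes), and in skin all 8 were (65.8%). By the brightest probe of each gene, 3 of the 8 exceeded their tooth value by 2-fold or more in skin (14.2% of the 17409 measured genes did), and 3 exceeded their skin value as much in tooth (15.5%). Mbp was counted here by a probe listed for 1 transcript variant alone. The median difference was -0.69 (log2, skin minus tooth), beside -0.04 over all measured genes. The genes were chosen with earlier results of these data known, and these counts are a description only. Below, an intensity is the processed signal before scaling, its error is 1 SD by the error model of the extraction software, and a level is the log2 intensity minus the 75th percentile of its array. That percentile was an intensity of 428 for tooth and 276 for skin. Except for Ngfr, each probe was 1 spot per array.

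**Figure D1:**
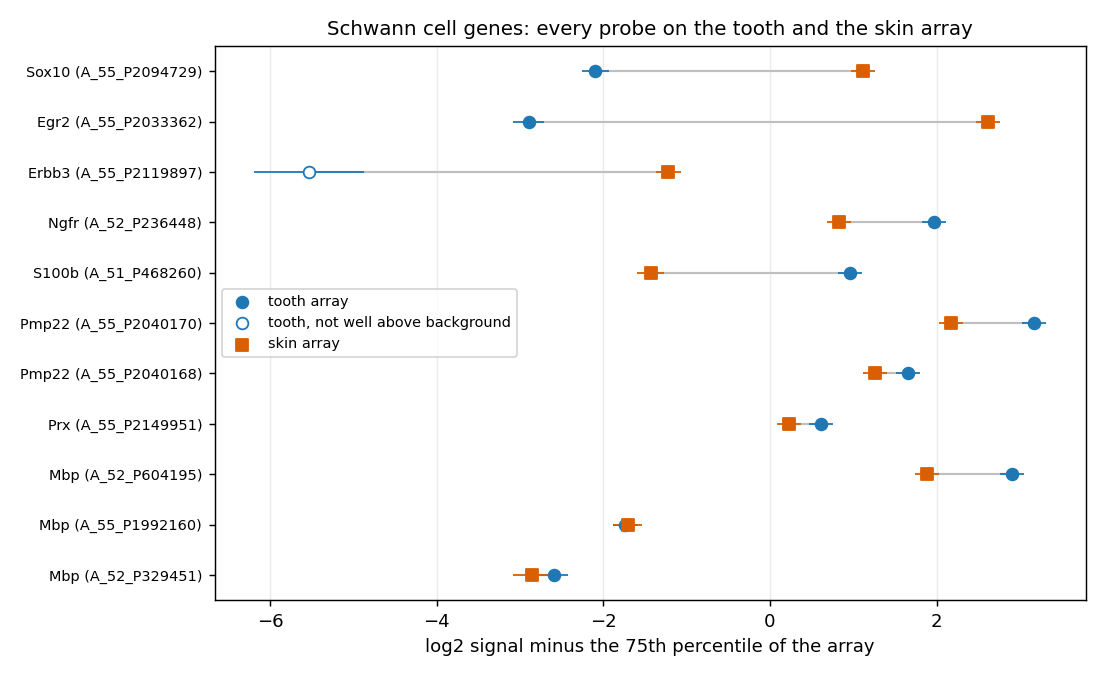
Level of each of the 11 probes in tooth (circles) and skin (squares), as log2 signal minus the 75th percentile of the array; bars are the error of the extraction software's model, the open circle was not well above background, and probes carry Agilent's names. Sox10, Egr2 and Erbb3 lie to the right in skin, and S100b lies to the right in tooth; positions of different probes are not comparable with each other.

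The transcription factors were both higher in skin. Egr2, also called Krox20, is the factor that starts myelination, and it is also made in hair follicles. In tooth the intensity was 57.5 ± 7.32, and in skin it reached 1694 ± 169. The levels were -2.90 and 2.62, and the difference of 5.51 ± 0.23 (log2) is a 45.6-fold higher value in skin. Of the 17409 measured genes, 277 (1.59%) differed more in that direction, and this was the largest difference among the members. The tooth spot was dim, and background correction by normexp gave 4.38. Sox10, the lineage factor, had an intensity of 100.1 ± 11.1 in tooth and 599 ± 60.2 in skin. Its levels were -2.10 and 1.12, with a difference of 3.21 ± 0.22, or 9.27-fold. In tooth its spot was not marked as found by the spot finder of the software, which was so for 7.82% of the spots well above background on that array. Normexp gave 2.51.

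Of the receptors, Erbb3 was higher in skin and Ngfr in tooth. Erbb3 binds neuregulin and signals together with Erbb2. Its intensity was 9.27 ± 4.24 in tooth, where it was not detected, and 119 ± 12.7 in skin. The skin value exceeded the detection limit of the tooth array by at least 9.82-fold. The measured difference was 4.31 with the dim value as it stands, and 1.84 after normexp, which is less than that bound. The same holds for every other gene given here as at least so many fold: the bounds are for the background set by the extraction software, and the difference after normexp was smaller. Erbb2, the partner receptor and no marker of glia, was also higher in skin, by 1.08 (0.93 after normexp).

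Ngfr, the low-affinity neurotrophin receptor p75, is made by immature Schwann cells and also by dental mesenchyme and sensory neurons. It was the only member with replicate spots, 10 on each array. Outlier calls removed 2 of them on the tooth array. The remaining 8 spots in tooth lay between 1612 and 1720, and the 10 spots in skin lay between 460 and 546, so the spots of the arrays did not overlap before scaling. The levels were 1.97 ± 0.03 (SD, 8 spots) and 0.83 ± 0.07 (SD, 10 spots), and the difference was -1.14, a 2.20-fold higher value in tooth. Of the measured genes, 2347 (13.5%) differed more in that direction. These are spots of the same labelled RNA and not replicates of the tissue.

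**Figure D2:**
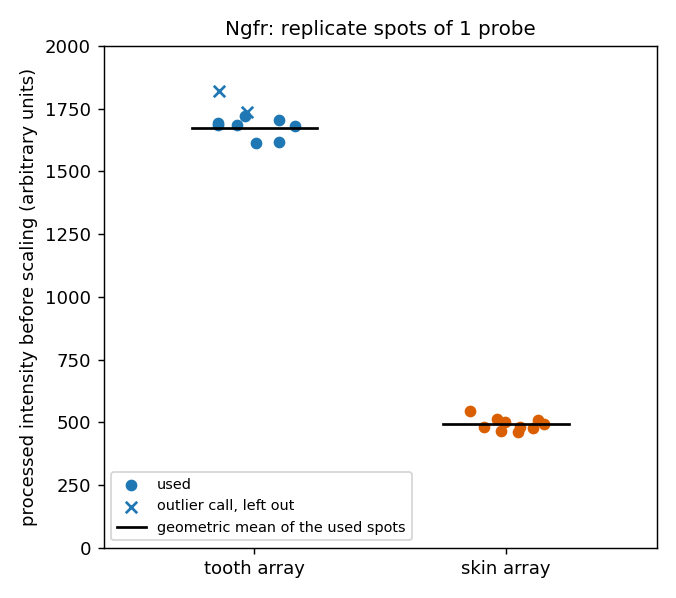
Processed intensity of each of the 10 Ngfr spots on the tooth and the skin array before scaling; lines are the geometric means of the used spots and crosses are the 2 spots left out. Used spots lie between 1612 and 1720 in tooth and between 460 and 546 in skin.

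S100b, a calcium-binding protein of glia that is also made in cartilage and fat cells, was the member that differed most toward tooth. Its intensity was 829.8 ± 83.1 in tooth and 102 ± 11.7 in skin. The levels were 0.96 and -1.43, with a difference of -2.39 ± 0.22, or 5.23-fold higher in tooth. More strongly toward tooth were 788 of the measured genes (4.53%). Normexp gave -1.77 and spike-in scaling -3.01.

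The genes of the myelin sheath differed by less. Pmp22, a membrane protein of compact peripheral myelin, is also made by many fibroblasts. Its brighter probe, downstream of the stop codon, had an intensity of 3847 ± 385 in tooth and 1243 ± 124 in skin, with levels of 3.17 and 2.17 and a difference of -0.997 ± 0.20 (1.996-fold higher in tooth). The probe at the stop codon, 1067 bases away, read 1354.5 ± 136 and 659.9 ± 66.2, with levels of 1.66 and 1.26 and a difference of -0.41 ± 0.20. Both probes were higher in tooth, and their differences were 0.59 apart. Prx (periaxin), which links the myelinating cell's membrane to its cytoskeleton, had an intensity of 656 ± 65.7 in tooth and 324 ± 32.7 in skin. Its levels were 0.62 and 0.23 and its difference was -0.38 ± 0.21, within 2-fold.

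Mbp, a protein of the inner face of myelin, had 3 probes, and the value depended on the probe. The locus also makes golli transcripts, which start far upstream and occur in cells that form no myelin. The most upstream probe (A_55_P1992160) is listed by the array for 2 transcript variants, the next one (A_52_P604195), 36400 bases downstream, for 1 of these alone, and the last (A_52_P329451), another 14277 bases on, for 4 variants. The last probe spanned 2305 bases of genome with 60 bases of sequence, so it crosses at least 1 intron. The upstream probe had an intensity of 129 ± 13.8 in tooth and 85.0 ± 10.0 in skin, with levels of -1.73 and -1.70. The arrays did not differ beyond the error for this probe (0.03 ± 0.23). The probe listed for a single variant was at 3201 ± 320 in tooth and 1018 ± 102 in skin, with levels of 2.90 and 1.88 and a difference of -1.02 ± 0.20 (2.03-fold higher in tooth). The last probe was at 71.2 ± 8.32 and 38.2 ± 6.0, and its tooth spot was not marked as found by the spot finder. Its levels were -2.59 and -2.85, and its difference of -0.27 ± 0.28 was within the error. So the 2-fold difference of Mbp rests on a probe for 1 transcript variant. That variant is also listed for the most upstream probe, so its transcript starts more than 36400 bases before the bright probe. Whether it is a golli transcript was not tested, so this probe need not read myelin transcripts. With the probe listed for 4 variants, the number of members at least 2-fold higher in tooth was 2. The median difference of all members was then -0.33.

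Mbp by its bright probe (-1.02) and Pmp22 by its brighter probe (-0.997) lay next to the 2-fold threshold, on either side of it. The count of 3 members in tooth therefore moved with the scaling. It was 5 under spike-in scaling, where Pmp22 (-1.62) and Prx (-1.01) joined Mbp, Ngfr and S100b, and 2 when the percentile was taken over the probes detected on both arrays. The 3 members in skin were the same under all 6 other ways of processing, and so was the direction of S100b, Ngfr, Pmp22, Prx and the bright Mbp probe. The remaining Mbp probes changed sign between them.

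**Figure D3:**
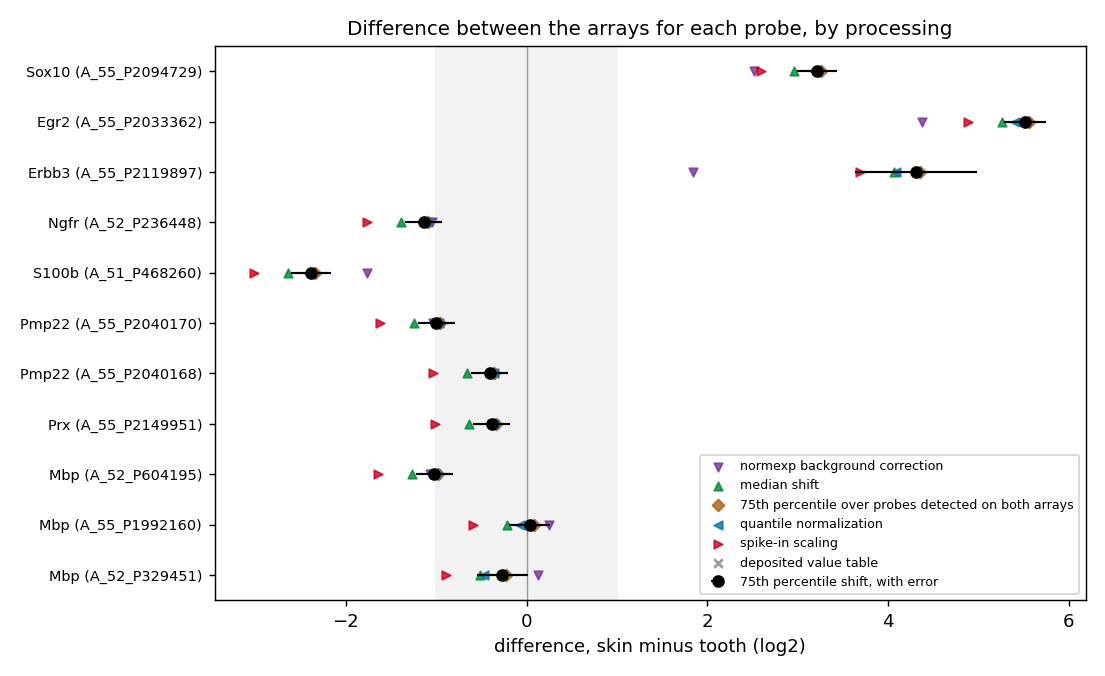
Difference between the arrays (log2, skin minus tooth) for each probe; black points are the 75th percentile shift with the error of the extraction software's model, coloured points are the 6 other ways of processing, and the grey band is within 2-fold. Sox10, Egr2 and Erbb3 stay above 1 throughout, Erbb3 falling to 1.84 after normexp, whereas Mbp and Pmp22 lie at the edge of the band.

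Other genes of myelinating Schwann cells were then set beside them. Of 13 such genes, 11 were measured, that is, detected in tooth, skin or both. The median difference was 0.02 (log2), with 1 gene past 2-fold toward skin and 3 toward tooth. The sign of this median depended on the processing. It was -0.57 over the 7 genes detected on both arrays and -0.60 under spike-in scaling. A median shift and quantile normalization each gave -0.23, whereas normexp gave 0.25 and dim values at their bound gave 0.16. Mag (0.02), Gjb1 (0.27) and Mal (-0.57) were within 2-fold. Spike-in scaling lowers every difference by 0.62 and turns the sign of Mag and Gjb1. Ncmap, a protein of noncompact myelin, was higher in tooth by both of its probes (-3.25 and -3.34). Cnp (-1.60) was also higher in tooth, as was Drp2 (-2.48), a partner of periaxin, although its other probe gave -0.44. Fa2h exceeded the detection limit of tooth by at least 290.4-fold in skin (6.22 on the log2 scale after normexp). It makes the hydroxylated fatty acids of myelin lipids and those of epidermal and sebaceous lipids.

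Among 16 transcription factors and genes of the Schwann cell precursor, 14 were measured on both arrays and their median difference was 0.18, which changed sign with the mean of a gene's probes (-0.09), a median shift (-0.06), dim values at their bound (-0.06) and spike-in scaling (-0.44), with 3 genes past 2-fold toward skin and 4 toward tooth. Pou3f1 (Oct6), which acts before Egr2 in myelination and is also an epidermal factor, differed most, from a level of -1.77 in tooth to 4.46 in skin (6.23). Tfap2a, of the neural crest and the epidermis, differed by 2.48, and by 3.33 with its other probe. Jun differed by 1.65. Nab1 (-0.39) and Nab2 (0.52), the cofactors of Egr2, were within 2-fold. Itga4 (-3.88), Fabp7 (-2.37), Id2 (-1.94) and Dhh (-1.14), the hedgehog ligand of Schwann cells, were higher in tooth, the last by only -0.21 after normexp. Pou3f2 (Brn2), which acts beside Pou3f1, differed by 0.87 by its brightest probe and by -1.90 and -1.94 by the others. Foxd3 and Cdh19, both markers of the early glial lineage, were detected in neither tissue.

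Signals between axon and glia lay on both sides. Of 9 genes, 8 were measured, with a median of -0.28 and differences between -1.41 and 1.08. By 2-fold or more, 2 of them (Erbb2 and Bdnf) lay toward skin and 3 toward tooth. Nrg1, the ligand of Erbb3, was higher in tooth (-1.36, or -0.40 after normexp), the opposite side to Erbb3. Adgrg6 (-1.32), a receptor needed for myelination, and Adam22 (-1.41), which binds the Schwann cell protein Lgi4, were higher in tooth too, while Lgi4 itself (-0.49) was within 2-fold. Bdnf, a neurotrophin, was higher in skin (1.01). After normexp Adgrg6 (-0.55), Adam22 (-0.67) and Bdnf (0.69) kept their sign within 2-fold.

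**Figure D4:**
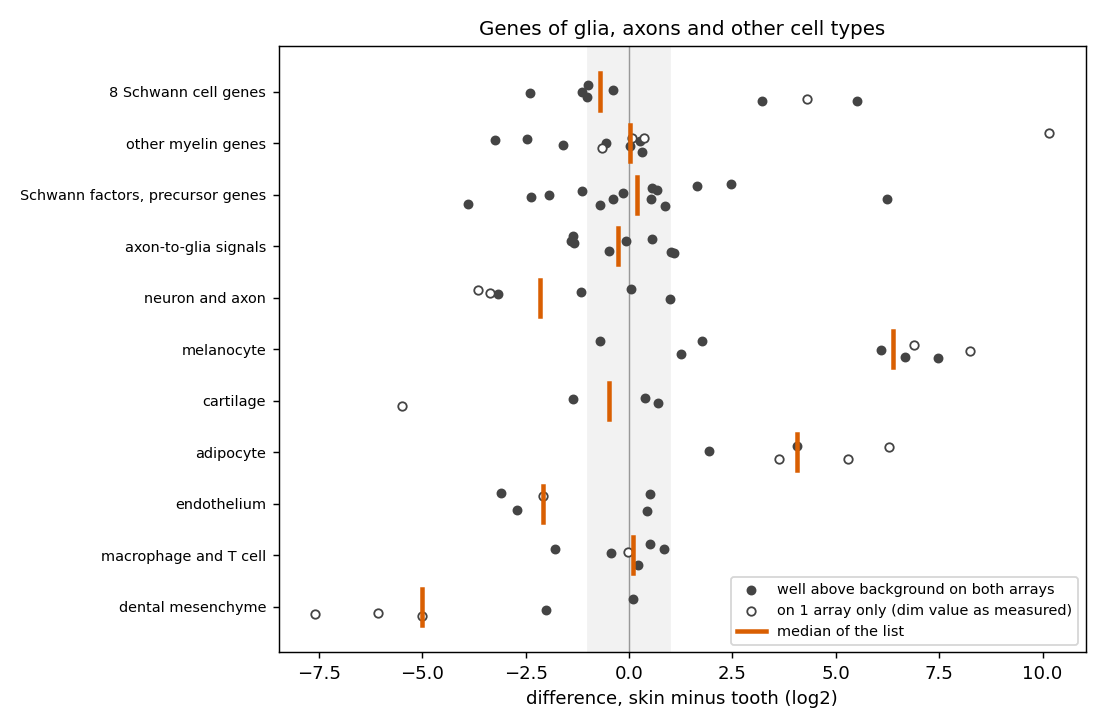
Difference between the arrays (log2, skin minus tooth) of every measured gene in each list, 1 point per gene by its brightest probe; open points were detected on 1 array only, bars are list medians and the grey band is within 2-fold. The 8 Schwann cell genes spread from -2.39 to 5.51, and the melanocyte list has its median at 6.39.

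Of 10 genes of neurons and axons, 6 were measured and 4 were higher in tooth. The median was -2.16, or -0.55 over the 4 measured on both arrays and -0.78 after normexp. None passed 2-fold toward skin, although Elavl4, an RNA-binding protein of neurons, lay at 0.99 and reached 1.04 with the percentile over probes detected on both arrays. Tubb3, a tubulin used as a marker of neurons, had a level of 4.37 in tooth against 1.197 in skin (-3.17), and Stmn2 differed by -1.16. Which cells made the transcripts of this list was not tested, and the number of axons was not measured. Uchl1 (at least 3.58-fold) and Nefl (at least 2.57-fold) were detected only in tooth, and after normexp both were within 2-fold (-0.66 and -0.90), whereas Snap25 (0.05) was equal within 2-fold. Prph, Nefm, Nefh and Scn9a were detected in neither tissue. The summed level of the list, which is the sum of the linear signals relative to the 75th percentile of the array, was 52.8 in tooth and 34.7 in skin. A sum adds probes of unlike brightness, and Snap25 alone made up 54.3% of it in tooth and 85.5% in skin.

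Melanocytes share Sox10 and Erbb3 with Schwann cells, and most of the melanocyte genes examined were also higher in skin. Of 8 melanocyte genes, 6 were detected in tooth and 8 in skin. The summed level was 7.20 in tooth and 182 in skin, where Dct made up 65.4% of it, and 7 of the 8 passed 2-fold toward skin. Pmel (7.46), Mlana (6.68) and Dct (6.10) differed most among those measured on both arrays, and Tyrp1 and Slc45a2, undetected in tooth, were higher in skin by at least 296.5-fold and 27.7-fold (5.91 and 3.25 on the log2 scale after normexp). Mitf differed by 1.25 and Kit by -0.71. The part of melanocytes in the values of Sox10 and Erbb3 was not tested.

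S100b is shared with cartilage and fat. Of 5 cartilage genes, 4 were detected in tooth and 3 in skin, with a summed level of 6.999 in tooth and 4.67 in skin, where Sox9 made up 92.6% of it. Col2a1, undetected in skin, was higher in tooth by at least 43.3-fold (-3.49 after normexp) and Acan differed by -1.36 (-0.50 after normexp), while Sox9 (0.40) and Col9a1 (0.70) were within 2-fold and Matn1 was detected in neither tissue. The other probe of Col9a1 gave -2.62. The 5 adipocyte genes went the other way from S100b. Only 2 were detected in tooth and all 5 in skin, where the summed level was 16.4 against 1.53 in tooth, and each passed 2-fold toward skin. The part of these cells in S100b was not tested. Dental mesenchyme, which also makes Ngfr, was represented by 5 genes, all detected in tooth and 2 of them in skin. Their summed level was 23.1 in tooth and 14.1 in skin, but Lhx6 made up 51.2% and 89.6% of it. Lhx8 (at least 49.6-fold), Barx1 (at least 16.9-fold) and Pax9 (at least 7.83-fold) were detected only in tooth by these probes, and Msx1 differed by -2.01. After normexp Lhx8 was at -3.66, Barx1 at -2.50 and Pax9 at -1.65, and another Pax9 probe gave -2.48. Lhx6 was equal by its brightest probe (0.09) and lower in skin by another (-4.50). The part of dental mesenchyme in Ngfr was not tested.

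The tissue labels were checked with genes of enamel and dentin and of cornified epidermis. Amelx, Ambn, Enam, Mmp20 and Dspp were detected in tooth and not in skin. Krt1, Krt10, Lor and Flg were higher in skin by between 8.39 and 12.89 (log2). The epidermal genes were also detected in tooth, at levels of -0.80 (Krt1), 1.36 (Krt10), 1.44 (Lor) and -3.21 (Flg).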

How the data were processed

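Total RNA of 1 tooth and 1 skin sample was hybridised to Agilent whole-genome mouse arrays. The authors deposited the output of Agilent Feature Extraction (10.7.3.1), whose processed intensities were linear, with background subtracted, trends within the array removed and surrogates for dim spots (25.0% of spots in tooth, 27.7% in skin). The output also held raw and local background intensities, the error of the software's model and yes-or-no calls. The authors also deposited a table in which each value was the ratio of the processed intensity to 1 factor per array (430.7 in tooth, 274.5 in skin), with medians of 0.0810 and 0.0989. It was on a linear scale and not centred on genes.

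Outlier spots were left out, spots of a probe were averaged as log2 values, and the 75th percentile over non-control probes was subtracted, after the percentile shift in the study's methods. Detection of a probe required the call well above background on over 50% of its spots, and a gene was measured when detected on at least 1 array. The brightest probe by mean stood for a gene. A gene detected on 1 array was given as a bound against the lowest signal well above background on the other, -4.52 in tooth and -3.73 in skin, or its own if higher. Names other than those of the members came from RefSeq (GRCm38.p6) by accession for 27235 of 33184 named probes; its coordinates were not used, and exon and UTR positions were not analysed here. No test was run. Alternatives were normexp (limma 3.58.1, offset 50), other scalings and the deposited table. The scaling and the averaging of spots were tested on simulated data, with every spot called well above background and no outlier calls. Detection calls, bounds and normexp were not tested in this way. Probes with at least 8 spots had a median SD of 0.13 (tooth) and 0.14 (skin) at intensities of 30 to 300, and of 0.06 and 0.07 at 300 to 5000 (log2). The number of arrays limits the precision. The members, all lists and the alternative for Mbp were chosen with earlier results of these data known. All members and every list are reported, and measured genes of a list could be named; a few list genes are not reported here by name.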

Additional observations from a re-analysis of the deposited data

How the results depend on the processing

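The direction and the 2-fold call of Sox10, Egr2 and Erbb3 held under all 6 alternatives of background, scaling and file. The median difference of the 8 genes (-0.69) moved to -0.94 under a median shift, to -1.32 under spike-in scaling, to -0.40 with the mean of a gene's probes, to -0.997 over the 7 genes detected on both arrays, and to -0.33 with the Mbp probe listed for 4 variants, an alternative chosen after seeing the data. The number of members at least 2-fold higher in tooth (3) was 5 under spike-in scaling. The 8 spike-in probes differed by a median of -0.01 before scaling, so this scaling lowers every gene by 0.62. Normexp brought the differences with a dim side closer to 0. The cause of these changes was not tested beyond that construction. No paired analysis was possible because each tissue had 1 array. Dim spots limit Erbb3, Sox10 and Egr2 in tooth, S100b in skin and 2 Mbp probes on both arrays.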

Other observations

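Other cell types of both tissues were examined by lists of the same kind. Of 5 endothelial genes, all were detected in tooth and 4 in skin, and their median lay at -2.08 (skin minus tooth on the log2 scale; -0.43 after normexp). Emcn (-3.10) and Cdh5 (-2.70) were higher in tooth and Tek, undetected in skin, exceeded the limit by at least 2.77-fold (-0.43 after normexp), whereas Pecam1 (0.50) and Kdr (0.43) were within 2-fold and the other probe of Kdr gave -2.19. Of 6 genes of macrophages and T cells, Csf1r (-0.43), Adgre1 (0.52), Cd3e (0.84) and Cd4 (0.22, its other probe 2.93) were within 2-fold and Cd68 (-1.79) was higher in tooth, with a median of 0.10 that turned to -0.52 under spike-in scaling. The adipocyte genes had a median of 4.07, with Fabp4 at 4.07, Pparg at 1.94, and Adipoq (at least 39.5-fold), Cidec (at least 29.8-fold) and Plin1 (at least 8.70-fold) detected only in skin by these probes. After normexp these were at 3.25, 3.01 and 1.64 (log2), and the other probe of Cidec gave 3.04.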
